A study of Bos taurus with 12 samples.

Results

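The mammary gland of cows with a low milk protein percentage was compared between lactation (LP) and the non-lactating period (LD) by its miRNAs. The comparison used 6 of the 12 small RNA libraries of the series, chosen by group name alone: LP replicates 1 to 3 and LD replicates 1 to 3. The other 6 libraries, from cows with a high milk protein percentage (HP in lactation, HD when not lactating), served as a second stage comparison. All 12 cows were healthy multiparous Chinese Holsteins free of mastitis, and each library came from the biopsy of a different cow. A difference between LP and LD is therefore a difference between cows as well as between stages, with no cow measured at both. A biopsy holds epithelium, vessels, connective tissue and blood together, so that in these bulk samples fewer cells of a type and less RNA per cell cannot be told apart. The stages were the peak of lactation and the non-lactating (dry) period.

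MiRNAs are short RNAs that guide Argonaute proteins to matching sites in mRNAs and lower the amount of protein made from them. Members of a family share the seed, the stretch at the 5′ end that pairs with the target, and many are transcribed from clusters as 1 long precursor RNA or from the intron of a host gene. In the mammary gland the secretory epithelium makes most of the tissue during lactation and milk itself carries abundant miRNAs, miR-148a among them. After drying off the alveoli regress, macrophages and lymphocytes enter the gland, and the epithelium is renewed before the next calving.

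Values were deposited as RPM (reads scaled to the same total in each library), 1 value per miRNA precursor and library, for 426 entries. Each of 388 mature miRNAs was represented by its precursor of highest mean. Median-of-ratios size factors over the 6 libraries turned RPM into normalized RPM, and log2 fold changes of LP over LD were fitted on log2(normalized RPM + 1) with limma. This scale understates the change of miRNAs present at a few RPM. A miRNA was called at a Benjamini-Hochberg adjusted p under 0.05 over all 388 miRNAs.

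The libraries stood apart in several ways that touch the results. To the nearest 10000 reads, the values implied 7930000 to 13370000 reads over the miRNA entries in LP and 14330000 to 21520000 in LD, without overlap. These are reads assigned to miRNAs and not the sequencing depth, since the paper reports a narrow range of clean reads over all libraries. Libraries differed more among LD than among LP, with a root mean square log2 difference of 0.764 to 1.019 within LD, 0.595 to 0.744 within LP and 0.908 to 1.357 between the groups. The size factor of LD replicate 1 was 1.619, against 0.796 and 0.826 in LD replicates 2 and 3 and 0.851 to 1.207 in LP. In LD replicate 2 the red blood cell miRNAs (miR-451, miR-144 and miR-486) summed to 7698 normalized RPM, against 447 and 824 in the other LD libraries and 933 to 2398 in LP. Entries that resemble fragments of rRNA, tRNA or snoRNA (6 entries) summed to 2723 to 4349 normalized RPM in LP and 663 to 1603 in LD. The part of miRNA read number, blood and such fragments in the differences below was not tested.

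Between LP and LD, 52 of 388 miRNAs (13.4%) were called by limma, 32 higher in LP (8.25%) and 20 lower in LP (5.15%). The miRNAs higher in LP included the milk miRNA miR-148a, the epithelial miRNAs miR-375, miR-200a, miR-200b and miR-200c, and miR-29c and miR-29b, which repress collagens and other matrix genes. Those lower in LP included miR-146b, miR-155 and miR-142-5p of immune cells, the neighbours miR-181c and miR-181d, and 4 miRNAs of the imprinted DLK1-DIO3 cluster. Other miRNAs of the same cell types had the opposite sign and were not called. Among epithelial miRNAs these were miR-182 (log2 fold change of -1.53), miR-183 (-1.85) and miR-205 (-0.17), and among leukocyte miRNAs miR-223 (0.32) and miR-342 (0.27). The fold of the called miRNAs ranged from 1.65 to 7.98 with a median of 3.38, and their LP and LD libraries did not overlap in any of the 52. Over all miRNAs the groups did not overlap in 137 of 388 (35.3%), 75 higher and 62 lower in LP, and the median log2 fold change was -0.04. By the rule for DE miRNAs in the methods of the study (unadjusted p under 0.05, log2 fold change beyond 0.8 in either direction), 106 miRNAs (27.3%) were DE, 59 higher (15.2%) and 47 lower (12.1%).

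**Figure D1:**
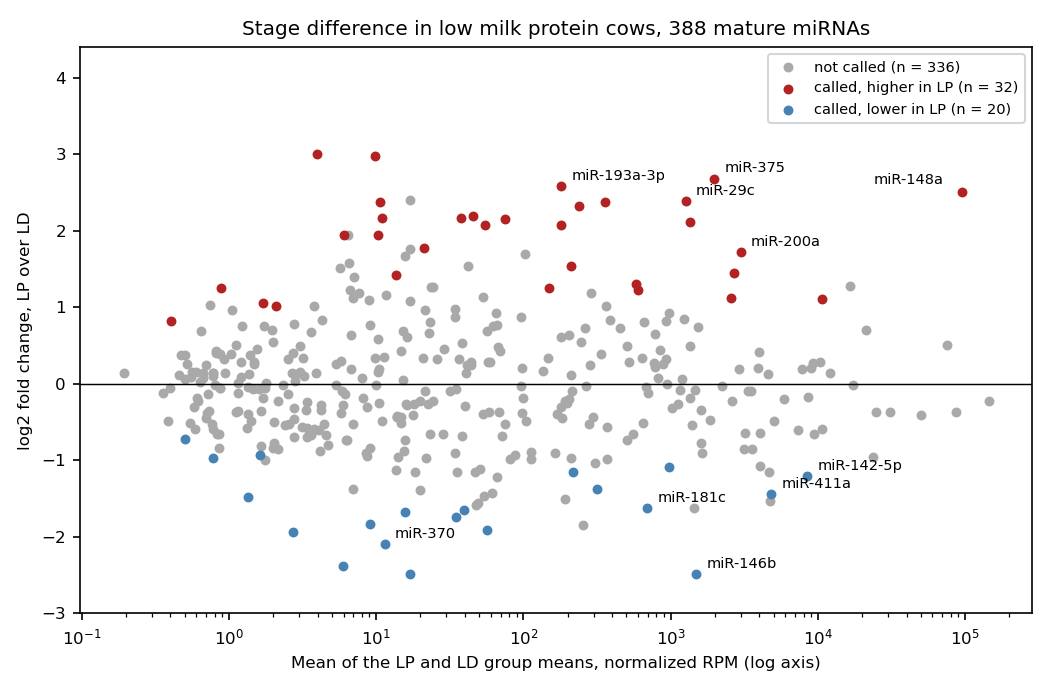
Level and stage difference of all 388 miRNAs, with the mean of the LP and LD group means in normalized RPM on a log x axis and the log2 fold change of LP over LD on the y axis. The 32 miRNAs called higher in LP (red) and the 20 called lower (blue) occur among low and abundant miRNAs, and miR-148a, at a log2 fold change of 2.50, lies farthest to the right among them.

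How many miRNAs passed depended on single libraries and on the scaling. Leaving out LP replicate 1, 2 or 3 gave 5, 32 and 4 calls, and leaving out LD replicate 1, 2 or 3 gave 82, 13 and 18. Without size factors 7 miRNAs were called, 6 higher and 1 lower (85.7% higher, against 61.5% with them). Each of the 52 kept its direction in every alternative fit that held it. By limma each also kept an unadjusted p under 0.05 in all 6 fits that left out a library. Both outcomes were largely set by the choice of the 52, which came from the same libraries and whose groups did not overlap. Called in all 6 fits that left out a library were 4 miRNAs: miR-29c, miR-375, miR-6715 and miR-6516.

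Of the 10 miRNAs with the highest mean over the 6 libraries, 1 was called, miR-148a, against 13.4% of all 388 miRNAs. It represses the DNA methyltransferase DNMT1 and is among the leading miRNAs of milk. It was at 206824, 88596 and 189659 normalized RPM in LP replicates 1 to 3 and 32938, 19812 and 29637 in LD replicates 1 to 3. Every LP library exceeded every LD library, and LP replicate 2 lay closest to LD. The log2 fold change of LP over LD was 2.50 (SE 0.43, limma adjusted p = 0.0147), a fold of 5.64. The call was lost without LP replicate 1 (limma adjusted p = 0.0658) or LP replicate 3 (0.0962), while the log2 fold change stayed between 2.29 and 2.90. As a share of all RPM over the 388 miRNAs it took 20.9%, 13.2% and 22.5% in LP replicates 1 to 3, and 6.73%, 1.98% and 3.08% in LD replicates 1 to 3. By group mean it ranked 1 in LP and 6 in LD.

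The other members of the seed family of miR-148a differed less, without passing the threshold. miR-148b had a log2 fold change of 0.26 (SE 0.27, limma adjusted p = 0.553) and miR-152 of 0.49 (SE 0.51, limma adjusted p = 0.553). For miR-152 the LD libraries ranged from 165 to 767 normalized RPM and enclosed the LP libraries, at 480 to 577.

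Of the 10 miRNAs with the highest mean in LP, 9 were also among the 10 highest in LD. miR-143, a miRNA of smooth muscle and other contractile cells, was the highest miRNA in LP replicate 2 and in LD replicates 1 and 2. It had 140671, 120061 and 111821 normalized RPM in LP and 78942, 281659 and 134677 in LD. The LD values lay on both sides of LP, and the log2 fold change of LP over LD was -0.22 (SE 0.49, limma adjusted p = 0.773), which turned to 0.27 without LD replicate 2. miR-30a-5p led LD replicate 3 with 141442 normalized RPM, against 25336 and 42725 in the other LD libraries and 45684 to 115450 in LP (log2 fold change of 0.50, with SE 0.64, limma adjusted p = 0.626, and -0.02 without LD replicate 1). miR-26a, which represses the methyltransferase EZH2, had 46235 in LD replicate 1 and 125280 and 130657 in LD replicates 2 and 3, with LP at 59197 to 91663. miR-10b, encoded in the HOXD locus, had 20170 in LD replicate 1 and 70758 and 92384 in the others, with LP at 32319 to 48431. In miR-26a, miR-10b and miR-27b (17617 against 53550 and 37667) LD replicate 1 was the lowest of the 6 libraries and LD replicates 2 and 3 the highest. Their log2 fold changes were -0.37, -0.41 and -0.37, and none was called (limma adjusted p = 0.626, 0.636 and 0.604). Without LD replicate 1, miR-10b was called at -1.06 (limma adjusted p = 0.0423), and without LD replicate 3 it was at 0.02.

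Among the remaining abundant miRNAs, miR-22-3p had a log2 fold change of 0.70 (SE 0.34, limma adjusted p = 0.205), with 22120 to 29295 normalized RPM in LP and 11251 to 21914 in LD. Its groups did not overlap, although the difference missed the threshold. miR-21-5p, a miRNA raised in many injured and inflamed tissues, had -0.37 (SE 0.31, limma adjusted p = 0.462). let-7f, of the let-7 family that marks differentiated cells, had -0.01 (SE 0.29, limma adjusted p = 0.983).

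Of 10 epithelial miRNAs taken as markers of mammary epithelium, 9 had values at both stages, the most abundant (miR-141) at 4416 to 33590 normalized RPM over the 6 libraries. Their sum was 60624, 31978 and 47527 normalized RPM in LP and 21838, 24021 and 46964 in LD, so that the summed level overlapped (exact two-sided permutation p = 0.2 on RPM, with 0.1 the smallest that 3 libraries against 3 allow). 4 of the 9 were called, all higher in LP, and the median log2 fold change of the 9 was 1.28, against -0.04 over all miRNAs. The share of all miRNAs called higher in LP was 8.25%. The list held members with positive and with negative log2 fold changes.

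miR-375, which acts in pancreatic islets and in secretory epithelia, had 4607, 2052 and 3670 normalized RPM in LP and 449, 418 and 699 in LD. The lowest LP library was thus well above the highest LD library, and the log2 fold change of LP over LD was 2.68 (SE 0.37, limma adjusted p = 0.00615), a fold of 6.41. It was called in each of the 6 fits that left out a library (limma adjusted p at most 0.0493). The miR-200 family holds cells in the epithelial state by repressing ZEB1 and ZEB2, and its 5 members lie in clusters of 3 (miR-200a, miR-200b and miR-429) and 2 (miR-141 and miR-200c). miR-200a had 4957, 3671 and 5129 normalized RPM in LP and 1544, 1092 and 1538 in LD (log2 fold change of 1.72, with SE 0.28, limma adjusted p = 0.0122). miR-200b had 811, 822 and 835 in LP, an almost even level, and 271, 327 and 412 in LD (log2 fold change of 1.31, with SE 0.26, limma adjusted p = 0.0228). miR-200c had 4335, 3170 and 4359 in LP and 1212, 1279 and 1888 in LD (log2 fold change of 1.45, with SE 0.29, limma adjusted p = 0.0228). In these 3 members no library of LP reached down to LD.

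The other members of the 2 clusters had positive log2 fold changes that missed the threshold. miR-141, the most abundant of the family, had 33590, 11173 and 23715 normalized RPM in LP and 4416, 7152 and 19757 in LD, where LD replicate 3 reached into the range of LP (1.28, SE 0.60, limma adjusted p = 0.19). miR-429 had 448 to 501 in LP and 399, 144 and 216 in LD (1.02, SE 0.38, limma adjusted p = 0.0999). The calls of miR-200a, miR-200b and miR-200c were lost without LP replicate 1 (limma adjusted p = 0.0577, 0.0684 and 0.0717) or LP replicate 3 (0.082, 0.0962 and 0.0962), and those of miR-200b and miR-200c also without LD replicate 2 (0.0546 for both).

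miR-182 and miR-183, a pair of a single cluster that epithelial and sensory cells share, had negative log2 fold changes that missed the threshold. miR-182 had 3721, 1309 and 2274 normalized RPM in LP and 4965, 4595 and 11604 in LD (log2 fold change of -1.53, with SE 0.48, limma adjusted p = 0.0722). miR-183 had 155, 54.0 and 80.2 in LP and 206, 190 and 829 in LD (-1.85, SE 0.61, limma adjusted p = 0.0775). Both were DE by the unadjusted rule, and in both LD replicate 3 was the highest library. miR-205, of basal and stratified epithelium, was at 6965 to 9280 in LP and 8378 to 10022 in LD (-0.17, SE 0.27, limma adjusted p = 0.678).

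**Figure D2:**
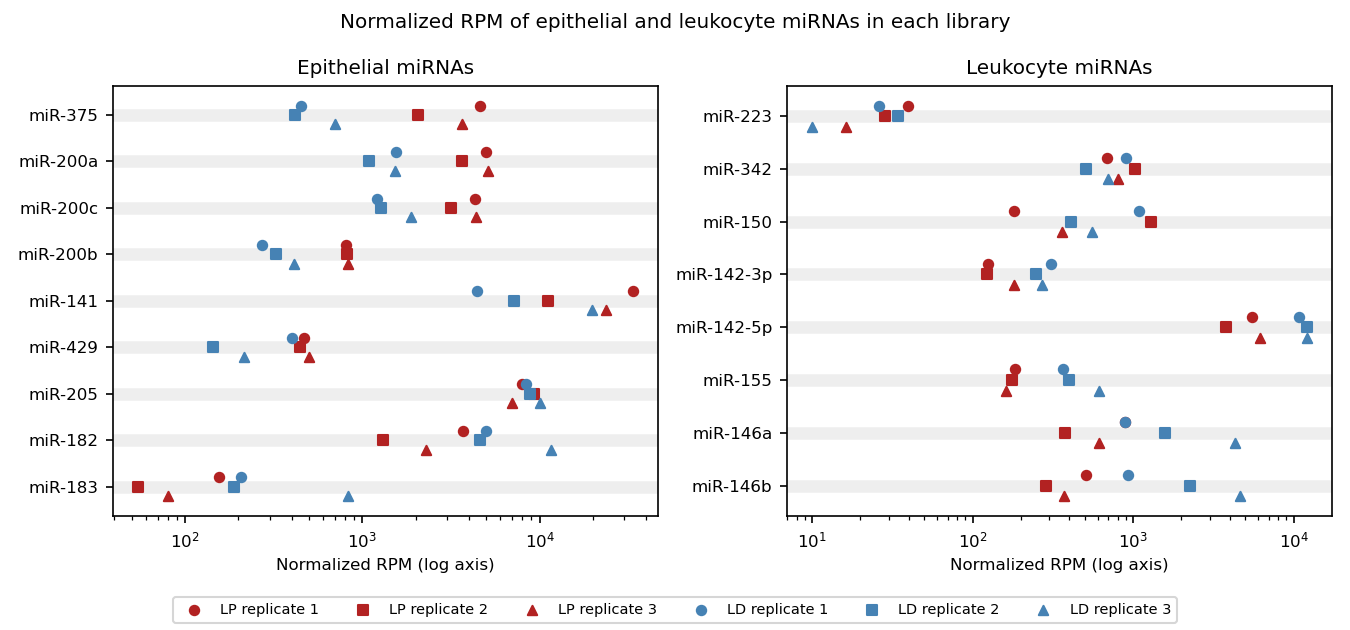
Normalized RPM (log x axis) of the 9 epithelial and the 8 leukocyte miRNAs in each library, with LP in red, LD in blue and 1 symbol per replicate. Each panel runs from the highest to the lowest log2 fold change of LP over LD. The LP libraries lie to the right for miR-375, miR-200a, miR-200c and miR-200b and to the left for miR-142-5p, miR-155 and miR-146b.

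The leukocyte miRNAs were lower in LP as a sum, with 8134, 7085 and 8703 normalized RPM in LP and 15375, 17583 and 23224 in LD. The groups did not overlap (exact two-sided permutation p = 0.1, the smallest possible). 3 of 8 members were called, all lower in LP, against the 5.15% of all miRNAs called lower. 5 were DE and lower, against 12.1% of all miRNAs, and the median log2 fold change of the 8 was -1.09. Most of the sum was miR-142-5p, which is made throughout the blood cell lineages. It had 5519, 3782 and 6201 normalized RPM in LP and 10867, 12155 and 12132 in LD (log2 fold change of -1.21, with SE 0.29, limma adjusted p = 0.0307). The other arm of its precursor, miR-142-3p, had 122 to 182 in LP and 248 to 309 in LD (-0.97, SE 0.29, limma adjusted p = 0.0592). Its libraries did not overlap, but the difference missed the threshold.

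miR-155, which activated lymphocytes and macrophages make, had 183, 176 and 161 normalized RPM in LP and 368, 399 and 614 in LD (log2 fold change of -1.37, with SE 0.29, limma adjusted p = 0.0233). miR-146b, which NF-κB induces and which represses TRAF6 and IRAK1, had 507, 287 and 372 in LP and 931, 2258 and 4622 in LD (-2.49, SE 0.54, limma adjusted p = 0.0233). Its fold of 5.63 was the largest of the 12 miRNAs named as lower in LP, and the LD libraries spread over a wide range. miR-146a, with the same seed, had 892, 377 and 609 in LP and 885, 1571 and 4325 in LD, where LD replicate 1 lay just below LP replicate 1 (-1.62, SE 0.57, limma adjusted p = 0.0868).

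For the other 3 leukocyte miRNAs the libraries overlapped. miR-223, of neutrophils and other myeloid cells, was low throughout, at 16.3 to 39.4 normalized RPM in LP and 9.97 to 34.3 in LD (log2 fold change of 0.32, with SE 0.53, limma adjusted p = 0.698). miR-150, of mature lymphocytes, had 182, 1291 and 361 in LP and 1088, 411 and 551 in LD (-0.51, SE 0.68, limma adjusted p = 0.633). miR-342 had 0.27 (SE 0.31, limma adjusted p = 0.592). The calls of miR-142-5p and miR-155 were lost without LP replicate 1 (limma adjusted p = 0.0901 and 0.0717), LP replicate 2 (0.0927 and 0.0554), LP replicate 3 (0.0962 for both), LD replicate 2 (0.0703 and 0.0546) or LD replicate 3 (0.0788 and 0.0726). The call of miR-146b was lost without LP replicate 1, 2 or 3 (0.0684, 0.0615 and 0.0962) or LD replicate 2 (0.0546).

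Markers of further cell types were taken as well. miR-126-3p, encoded in an intron of EGFL7 and made by endothelium, had 15727, 13664 and 14275 normalized RPM in LP and 6617, 8225 and 5638 in LD (log2 fold change of 1.11, with SE 0.28, limma adjusted p = 0.0335). It was about evenly high in LP and did not overlap with LD. The other arm of its precursor, miR-126-5p, had a log2 fold change of 0.46 and was not called. For the stages as a whole, the paper gives miR-126 as higher in the non-lactating period and miR-142 as higher in lactation. Between LP and LD, miR-126-3p (1.11) and miR-142-5p (-1.21) differed in the opposite directions. The reason was not tested. Of 4 striated muscle miRNAs, 4 stroma miRNAs and 3 red blood cell miRNAs, 0 were called by limma, and 2 of these 11 were DE by the unadjusted rule (miR-499 higher and miR-214 lower in LP). Over all miRNAs 13.4% were called and 27.3% were DE. The median log2 fold changes of the muscle, stroma and red blood cell lists were -0.55, -0.36 and 0.82. The summed striated muscle miRNAs were at 134 to 337 normalized RPM in LP and 114 to 533 in LD. miR-199a-3p, of fibroblasts, had 5961 to 8340 in LP and 9040 to 16366 in LD (-0.65, SE 0.33, limma adjusted p = 0.22). The neuronal miRNAs were represented by both arms of miR-9, at a total of 5.81 to 9.21 normalized RPM in LP and 22.8 to 28.3 in LD. Both were called lower in LP, against 5.15% of all miRNAs. The call of miR-126-3p was lost without any 1 library except LD replicate 1 (limma adjusted p = 0.0546 to 0.139), and that of miR-9-3p without LP replicate 1 or 3 or LD replicate 2 or 3 (0.0888, 0.137, 0.0703 and 0.0571).

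The miR-29 family, which represses collagens, elastin and other matrix genes, held the miRNA with the smallest p of the 24 named, miR-29c. It had 1742, 2198 and 2435 normalized RPM in LP and 362, 489 and 364 in LD (log2 fold change of 2.39, with SE 0.27, limma adjusted p = 0.00278). Every LP library lay above every LD library, and the call held without each library (limma adjusted p at most 0.0307). miR-29b had 321, 191 and 431 in LP and 109, 131 and 73.0 in LD (1.54, SE 0.38, limma adjusted p = 0.0325). miR-29a, the most abundant of the family, had 2958, 3446 and 3167 in LP and 3006, 4358 and 3026 in LD (-0.10, SE 0.27, limma adjusted p = 0.812). The mature miR-29b comes from either of 2 loci. In the RefSeq annotation 1 of them neighbours miR-29c and the other miR-29a, so its reads cannot be assigned to a locus here. miR-29d-3p was scarce, with 3.43, 2.29 and 3.63 in LP and 0.649, 1.11 and 1.39 in LD (1.01, SE 0.27, limma adjusted p = 0.0414), and its call was lost without any 1 of the 6 libraries (limma adjusted p = 0.0512 to 0.157). In all, 3 of 5 members were called, all higher in LP, against 8.25% of all miRNAs, with a median of 1.01. The call of miR-29b was lost without LP replicate 1 or 3 or LD replicate 2 or 3 (limma adjusted p = 0.103, 0.143, 0.0546 and 0.0829).

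Next to these, 6 further named miRNAs were higher in LP. In the cluster within CLCN5, miR-502a was at 22.5, 15.0 and 13.9 normalized RPM in LP and 3.06, 3.44 and 4.41 in LD (log2 fold change of 1.95, with SE 0.35, limma adjusted p = 0.0203). miR-362-3p was at 31.7, 24.3 and 45.0 against 8.02, 8.29 and 10.3 (1.78, SE 0.37, limma adjusted p = 0.0228). Of the 8 miRNAs of the cluster 2 were called higher, against 8.25% of all miRNAs, 5 were DE and higher, against 15.2%, and the median was 0.83. The most abundant, miR-660, had 1402 to 1707 in LP and 735 to 1063 in LD without passing the threshold (0.84, SE 0.26, limma adjusted p = 0.0696). miR-502b was the exception, at 7.52 to 11.2 in LP and 14.7 to 54.4 in LD (-1.39, SE 0.50, limma adjusted p = 0.0936).

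miR-193a-3p had 163, 506 and 263 normalized RPM in LP and 60.1, 66.6 and 23.9 in LD (log2 fold change of 2.58, with SE 0.52, limma adjusted p = 0.0228). miR-190a, within the gene of the cytoskeletal protein TLN2, had 59.7, 71.2 and 140 in LP and 21.7, 13.5 and 24.2 in LD (2.07, SE 0.43, limma adjusted p = 0.0228). miR-32, within TMEM245, had 356, 197 and 643 in LP and 94.7, 43.4 and 85.7 in LD (2.32, SE 0.48, limma adjusted p = 0.0228). None of these groups overlapped. The calls of these 3 miRNAs, of miR-502a and of miR-362-3p were lost without LP replicate 1 (limma adjusted p = 0.0539 to 0.0722) or LP replicate 3 (0.082 to 0.0962). Those of miR-190a, miR-32, miR-502a and miR-362-3p were also lost without LD replicate 2 (0.0546 each), and that of miR-362-3p without LD replicate 3 (0.0554).

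miR-2904, listed here among entries that resemble fragments of longer RNAs, had 227, 239 and 392 normalized RPM in LP and 121, 45.7 and 50.6 in LD (log2 fold change of 2.07, with SE 0.43, limma adjusted p = 0.0228). 3 of the 6 such entries were called, all higher in LP, against 8.25% of all miRNAs, at a median of 1.44. The most abundant, miR-2478, had 1894, 1663 and 2874 in LP and 1024, 357 and 309 in LD (2.11, SE 0.47, limma adjusted p = 0.025). The third, miR-2887, had 348, 702 and 682 in LP and 274, 59.8 and 72.1 in LD (2.37, SE 0.58, limma adjusted p = 0.0307). In all 3, LD replicate 1 was the highest LD library. The call of miR-2887 was lost without any 1 library except LD replicate 1 (limma adjusted p = 0.0684 to 0.139). The calls of miR-2904 and miR-2478 were lost without LP replicate 1 (limma adjusted p = 0.0684 and 0.0792), LP replicate 3 (0.0962 and 0.112), LD replicate 2 (0.0556 and 0.0703) or LD replicate 3 (0.0571 and 0.0687).

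miR-30f was the only member called among 7 of the miR-30 family, with 976, 816 and 701 normalized RPM in LP and 293, 285 and 520 in LD (log2 fold change of 1.23, with SE 0.32, limma adjusted p = 0.0354). Over all miRNAs 8.25% were called higher in LP. All 7 members of the family had positive log2 fold changes, with a median of 0.44. The call of miR-30f was lost without LP replicate 1, 2 or 3 (limma adjusted p = 0.117, 0.0889 and 0.099) or LD replicate 2 (0.0878).

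**Figure D3:**
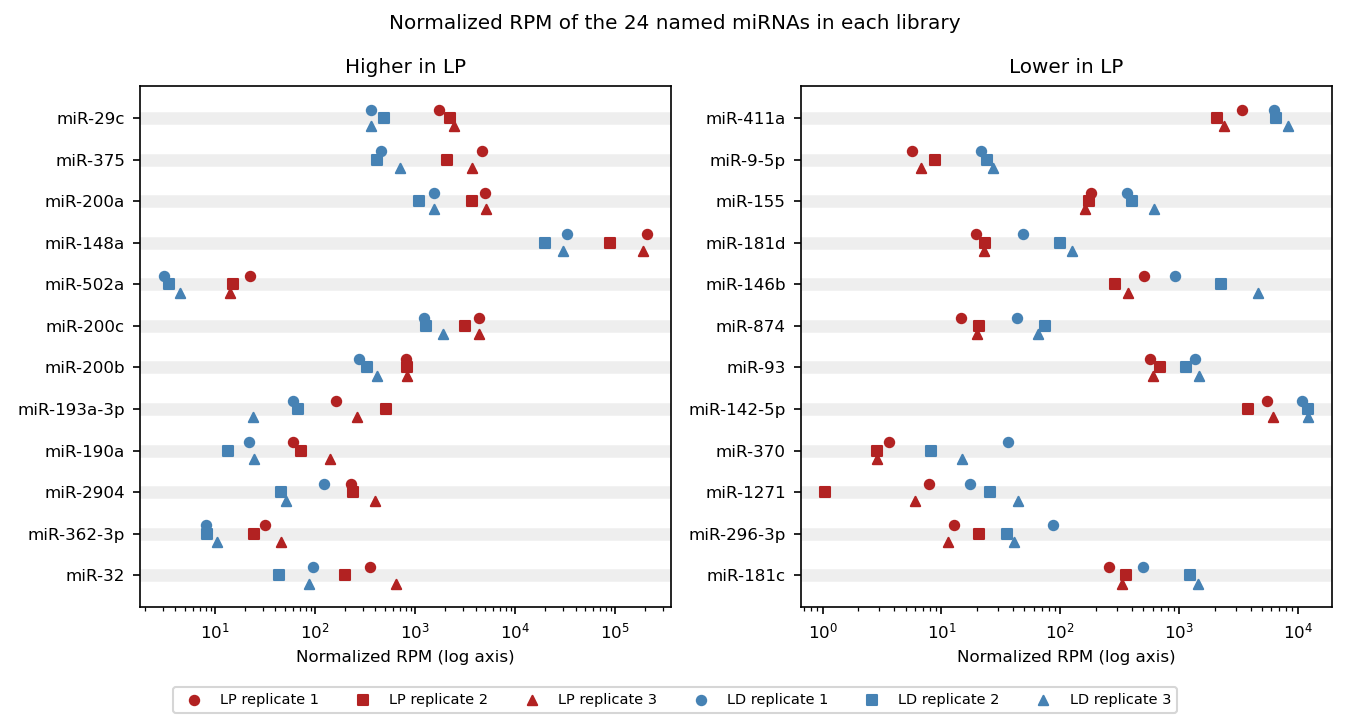
Normalized RPM (log x axis) in each library of the 12 miRNAs with the smallest p-values among those higher in LP (left) and among those lower in LP (right), for a mean of at least 10 RPM. LP is red, LD is blue and symbols mark the replicates. The LP and LD libraries do not overlap in any of the 24, which follows from their choice among the 52 called miRNAs, none of which overlaps. Over all 388 miRNAs the groups do not overlap in 35.3%.

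Among the miRNAs lower in LP with a mean of at least 10 RPM, the smallest p belonged to miR-411a of the DLK1-DIO3 cluster, an imprinted locus whose miRNAs are transcribed from the maternal allele. It had 3375, 2105 and 2388 normalized RPM in LP and 6293, 6570 and 8238 in LD (log2 fold change of -1.44, with SE 0.29, limma adjusted p = 0.0228). miR-370 of the same locus had 3.61, 2.87 and 2.88 in LP and 36.1, 8.18 and 15.0 in LD (-2.10, SE 0.51, limma adjusted p = 0.0307). miR-154c (-1.15, SE 0.32, limma adjusted p = 0.0494) and miR-134 (-0.93, SE 0.25, limma adjusted p = 0.0399) were also called lower, miR-134 at 0.496 to 1.23 normalized RPM in LP and 2.20 to 2.89 in LD. In total 4 of 36 members of the locus were called, all lower, against the 5.15% of all miRNAs called lower, and 10 were DE and lower, against 12.1%. The median log2 fold change was -0.63, and 3 of the 36 were positive.

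The locus as a whole summed to 4601, 3568 and 3292 normalized RPM in LP and 8738, 8339 and 10562 in LD, without overlap (exact two-sided permutation p = 0.1). miR-411a made up most of the sum. Others, such as miR-379 next to it, were not called (111, 40.8 and 54.5 in LP, 29.8, 327 and 585 in LD, log2 fold change of -1.50, with SE 0.97, limma adjusted p = 0.335). LD replicate 1 was the lowest of the 6 libraries for miR-379 and the highest for miR-370. The calls of miR-411a and miR-370 were lost without LP replicate 1, 2 or 3 or LD replicate 3 (limma adjusted p = 0.0568 to 0.139), that of miR-411a also without LD replicate 2 (0.0546), and those of miR-154c and miR-134 without any 1 of the 6 libraries (0.0511 to 0.204).

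The miR-181 family, known for its part in lymphocyte development, was represented by 4 members, all with negative log2 fold changes and a median of -1.29. The pair miR-181c and miR-181d, which lie next to each other, were both called. Thus 2 of the 4 were called lower, against 5.15% of all miRNAs, and 3 were DE and lower, against 12.1%. miR-181d had 19.5, 23.3 and 23.0 normalized RPM in LP and 48.7, 99.0 and 126 in LD (-1.91, SE 0.41, limma adjusted p = 0.0233). miR-181c had 259, 356 and 331 in LP and 495, 1235 and 1459 in LD (-1.62, SE 0.42, limma adjusted p = 0.0348). LP was even in both, and LD replicate 1 was the LD library closest to LP. The most abundant member, miR-181a, had 18975, 16831 and 11147 in LP and 17326, 41172 and 36683 in LD, where LD replicate 1 lay within LP (-0.96, SE 0.41, limma adjusted p = 0.152), and without LD replicate 1 it was called at -1.32 (limma adjusted p = 0.0223). miR-181b had -0.32 (SE 0.27, limma adjusted p = 0.457). The calls of miR-181c and miR-181d were lost without any 1 library except LD replicate 1 (limma adjusted p = 0.0511 to 0.137).

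miR-93, which lies with miR-106b and miR-25 within MCM7, a gene of DNA replication, had 567, 688 and 608 normalized RPM in LP and 1357, 1144 and 1467 in LD (log2 fold change of -1.09, with SE 0.25, limma adjusted p = 0.0279). miR-25 was DE but not called (-0.85, SE 0.29, limma adjusted p = 0.0846), and miR-106b had -0.20 (SE 0.26, limma adjusted p = 0.626). The 3 neighbours thus had unequal differences. Of the 15 members of the miR-17-92 cluster and its paralogs, miR-93 was the only one called, against 5.15% of all miRNAs called lower. The median of the 15 was -0.20. The most abundant, miR-92a, had 5383 to 5557 in LP and 6019 to 6537 in LD (-0.20, SE 0.25, limma adjusted p = 0.617), a small difference without overlap. The call of miR-93 was lost without any 1 library except LD replicate 1 (limma adjusted p = 0.0546 to 0.126).

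Further miRNAs lower in LP were less abundant. miR-9-5p, best known from the nervous system, had 5.63, 8.77 and 6.75 normalized RPM in LP and 21.6, 24.1 and 27.3 in LD (log2 fold change of -1.67, with SE 0.35, limma adjusted p = 0.0228). miR-874, within KLHL3, had 14.6, 20.6 and 20 in LP and 43.4, 74.7 and 64.5 in LD (-1.65, SE 0.36, limma adjusted p = 0.0233). miR-296-3p, of the imprinted GNAS region, had 12.7, 20.6 and 11.3 in LP and 86.3, 35.9 and 40.8 in LD (-1.74, SE 0.44, limma adjusted p = 0.0346). LD replicate 1 was the highest library for miR-296-3p and the lowest of LD for the other 2. miR-1271, within ARL10, had 7.81, 1.04 and 6.0 in LP and 17.3, 25.5 and 44.2 in LD (-2.48, SE 0.61, limma adjusted p = 0.0317). The calls of these 4 were lost without LP replicate 1 (limma adjusted p = 0.0684 to 0.117), LP replicate 3 (0.0962 to 0.166), LD replicate 2 (0.0546 to 0.0703) or LD replicate 3 (0.0726 to 0.0822), and those of miR-296-3p and miR-1271 also without LP replicate 2 (0.052 and 0.0633).

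Several families held no called member at all by limma: let-7 (10 members, median log2 fold change 0.11), miR-15 with miR-16 (8 members, 0.06), miR-99 and miR-100 with miR-125 (6 members, -0.76), miR-10 with miR-196 (4 members, -0.60), miR-23, miR-27 and miR-24 (7 members, -0.03), miR-34 with miR-449 (4 members, 0.23), miR-26 (2 members, -0.05) and miR-221 with miR-222 (2 members, -0.70). Over all miRNAs 13.4% were called, so that lists of this size can hold no call without differing from the rest. By the unadjusted rule let-7a-3p and miR-34b were DE and higher, and miR-15b was DE and lower, against 27.3% of all miRNAs DE. All 10 members of the miR-99, miR-100, miR-125, miR-10 and miR-196 lists had negative log2 fold changes, with a wide spread in LD. miR-100, for instance, had 3723, 2024 and 1875 normalized RPM in LP and 1882, 8514 and 9716 in LD (-1.15, SE 0.61, limma adjusted p = 0.247). Among the 5 members of the miR-130 and miR-301 family, miR-301b was called lower (-1.83, SE 0.43, limma adjusted p = 0.0293), against 5.15% of all miRNAs. The median of the family was -0.45. The call of miR-301b was lost without any 1 library except LD replicate 1 (limma adjusted p = 0.0546 to 0.142). Summed per list on RPM, LP and LD did not overlap for 8 of the 25 lists with values, and after division by size factors for 10, which compares with 35.3% of single miRNAs.

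**Figure D4:**
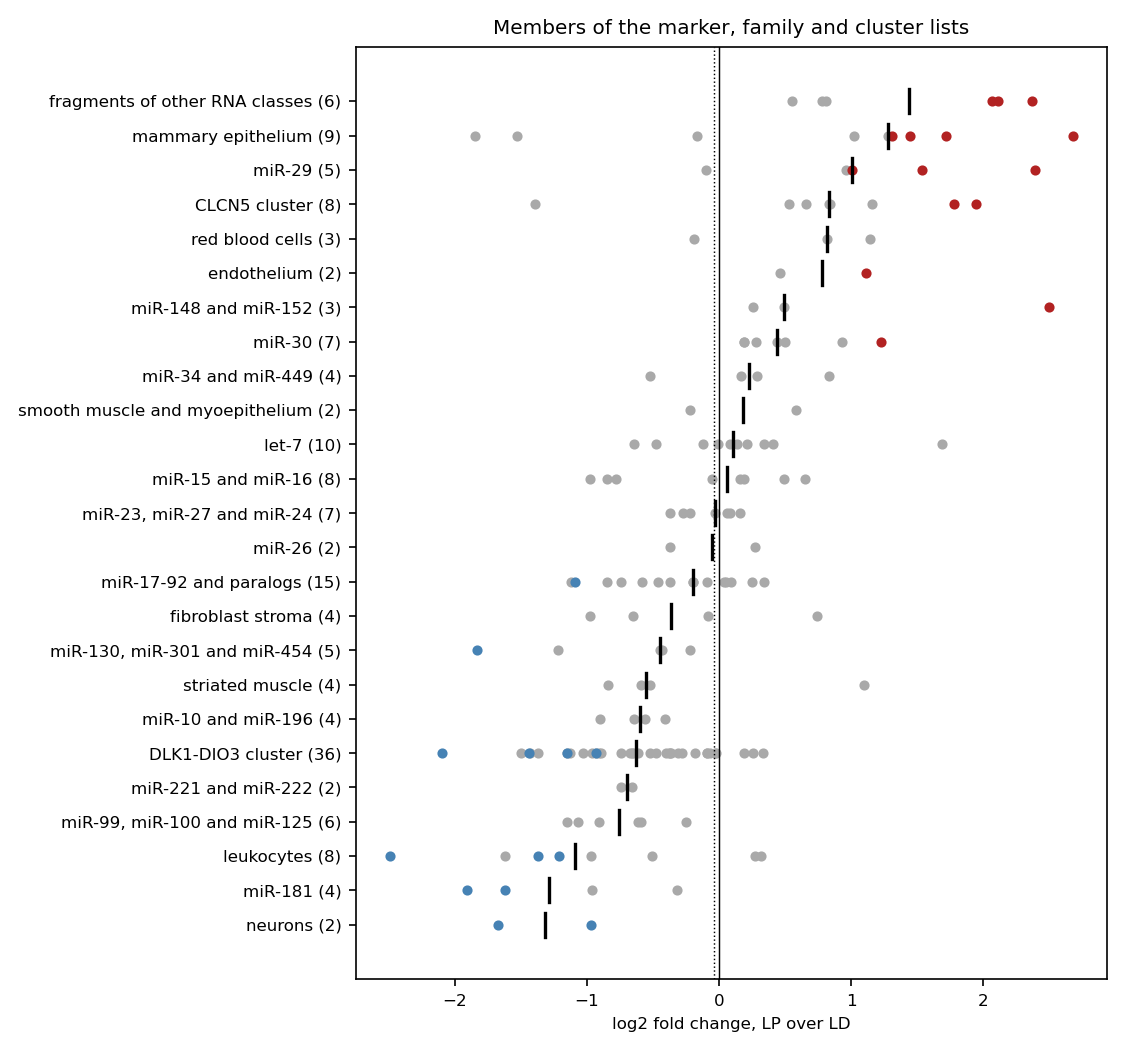
Log2 fold changes of LP over LD (x axis) for the members of each marker, family or cluster list, with the number of members in brackets, called members in red (higher in LP) or blue (lower) and a black bar at the median of the list. The dotted line is the median of all 388 miRNAs (-0.04). Epithelial, miR-29 and CLCN5 cluster members lie mostly to the right, and leukocyte, miR-181 and DLK1-DIO3 members mostly to the left.

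The same stage comparison in the cows with a high milk protein percentage (HP against HD) used 6 other libraries, normalized on their own. There 117 of 388 miRNAs (30.2%) were called, 55 higher (14.2%) and 62 lower (16.0%) in lactation. Of the 52 miRNAs called between LP and LD, 39 were called in the same direction between HP and HD (75.0% of the former and 33.3% of the latter), 23 higher and 16 lower in lactation, and 51 had the same sign. Of the 117, 112 had the same sign between LP and LD, as did 305 of all 388 miRNAs. Across the 388 miRNAs the log2 fold changes of both comparisons correlated at 0.864 (Pearson) and 0.824 (Spearman), which describes miRNAs of the same libraries that are not independent of each other. The median standard error was 0.35 for LP against LD and 0.32 for HP against HD, and the median SD on the log2 scale was 0.42 in LD, 0.31 in LP, 0.34 in HP and 0.33 in HD.

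The leading miRNAs differed in the same direction in the high protein cows. miR-148a had 147566 to 180406 normalized RPM in HP and 14506 to 25520 in HD (log2 fold change 3.10, limma adjusted p = 0.000441), and miR-375 had 3014 to 6190 and 262 to 529 (3.56, limma adjusted p = 0.000497). miR-29c had 907 to 3398 and 219 to 348 (2.45, limma adjusted p = 0.00659). For miR-146b the HP libraries were at 117 to 172 and the HD libraries at 949 to 4335 (-3.64, limma adjusted p = 0.00186). The 36 miRNAs of the DLK1-DIO3 locus had a median of -1.18 between HP and HD, with 22 called lower (16.0% of all miRNAs were), against -0.63 and 4 between LP and LD.

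Whether the stage difference depended on milk protein percentage was tested directly, as (LP - LD) minus (HP - HD) over all 12 libraries. By limma 0 of 388 miRNAs passed (smallest adjusted p = 0.288), and 20 had an unadjusted p under 0.05. A p that misses the threshold does not show that the stage differences were equal. The smallest p-values belonged to miR-2313-3p (0.38 between LP and LD, 2.24 between HP and HD), miR-382 (-0.48 and -2.34), miR-200b (1.31 and 0.01), miR-410 (-0.89 and -2.22) and miR-34a (0.17 and -0.92). For miR-200b the difference of differences was 1.32 (SE 0.37, limma adjusted p = 0.482). Its HP libraries, at 449 to 691 normalized RPM, lay within the range of HD, at 464 to 751, whereas LP and LD were apart. miR-382 and miR-410, both of the DLK1-DIO3 locus, were lower in HP than in HD in every library (2.73 to 5.35 against 18.4 to 26.8, and 51.0 to 60.8 against 223 to 343), and in the low protein cows the ranges were closer (7.03 to 12.5 against 9.97 to 14.9, and 64.3 to 93.9 against 115 to 201). miR-34a, a p53 target, had 60.5 to 65.4 in HP, 93.0 to 146 in HD, 111 to 179 in LP and 123 to 131 in LD.

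Of the 52 miRNAs called between LP and LD, 13 were not called between HP and HD. They included the 3 called members of the miR-200 family, with log2 fold changes between HP and HD of 0.89 for miR-200a, 0.74 for miR-200c and 0.01 for miR-200b (limma adjusted p = 0.104, 0.164 and 0.986). miR-142-5p was also among them (-0.31, limma adjusted p = 0.554). The leukocyte list had a median of -0.18 between HP and HD against -1.09 between LP and LD. Of its 8 members, 3 were called lower between HP and HD (16.0% of all miRNAs were) and 1 higher (14.2%). The epithelial list had a median of 0.38 between HP and HD against 1.28 between LP and LD. Of its 9 members, 2 were called higher and 2 lower between HP and HD. The test of the difference itself gave limma adjusted p = 0.963 for miR-200a, miR-200c and miR-142-5p (unadjusted p = 0.0959, 0.157 and 0.0772), so that none of them was shown to differ between the low and the high protein cows.

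**Figure D5:**
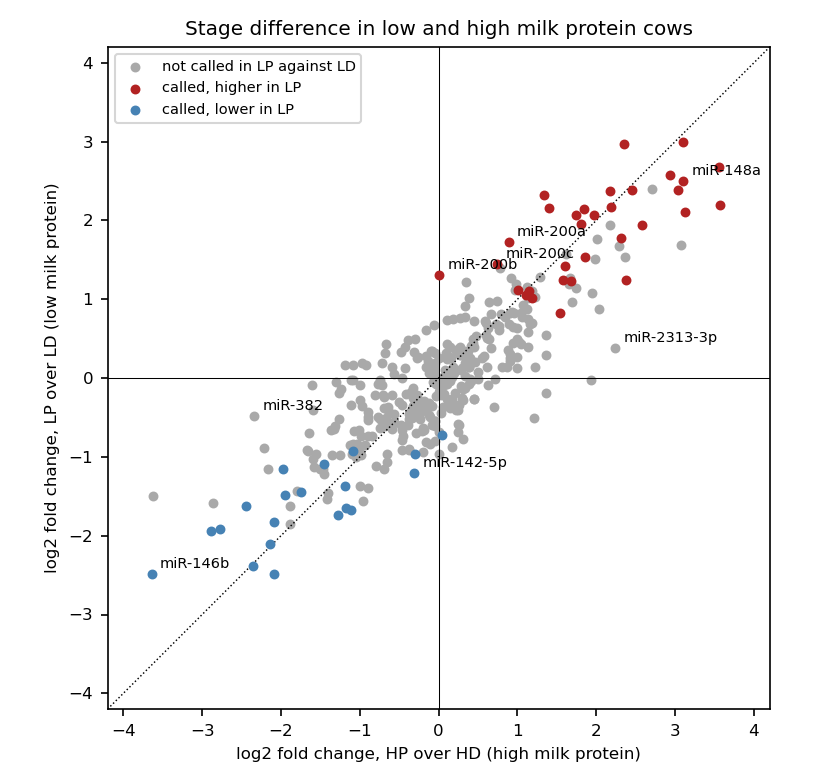
Log2 fold changes of LP over LD (y axis) against those of HP over HD (x axis) for 388 miRNAs, with miRNAs called between LP and LD in red (higher in LP) or blue (lower). The dotted line marks equal values, along which most called miRNAs lie, and miR-200b stands at 1.31 on the y axis and 0.01 on the x axis.

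Genomic neighbours were taken from the RefSeq annotation of the bovine assembly ARS-UCD2.0, which is not the build of the deposited values and served only for names, host genes and adjacency (miRNA genes within 10000 bases of each other). Of the 388 miRNAs, 385 were matched to it. Clusters of 2 or more of these genes numbered 45. Neighbours with both or all called were miR-181c with miR-181d, and miR-29b with miR-29c. miR-29b also neighbours miR-29a, which was not called (-0.10), and its reads cannot be assigned to either pair. In the clusters of miR-200a, miR-200b and miR-429, of miR-141 and miR-200c, and of miR-130b and miR-301b all members had the same sign and only a part was called. miR-130b had -1.22 (SE 0.43, limma adjusted p = 0.0868) beside miR-301b at -1.83. Host genes of other called miRNAs were SREBF1, the transcription factor of lipid synthesis, for miR-33b (2.19, SE 0.56, limma adjusted p = 0.0346), and the pantothenate kinases PANK2 and PANK3 for the 2 loci of miR-103 (1.12, SE 0.27, limma adjusted p = 0.0307). miR-33b had 80.7, 27.6 and 124 normalized RPM in LP and 19.5, 11.6 and 10.8 in LD, and miR-103 had 2887, 3245 and 4556 in LP and 1675, 1588 and 1558 in LD. In both, every LP library exceeded every LD library. These 2 were named after their values were seen. Their calls were lost without LP replicate 1 (limma adjusted p = 0.117 and 0.0717), LP replicate 3 (0.157 and 0.142), LD replicate 2 (0.0792 and 0.0703) or LD replicate 3 (0.0829 for both), and that of miR-103 also without LP replicate 2 (0.0633).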

How the data were processed

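Small RNA libraries (reads of 18 to 30 nt) of mammary biopsies from 12 cows were analysed, 3 in each of 4 groups. The authors trimmed reads with Cutadapt 2.8 and Trimmomatic 0.36, aligned them (Bowtie 1.1.1, up to 1 mismatch) to the assembly ARS-UCD1.2, and quantified miRNAs of miRBase 22.0 by miRDeep2. The authors deposited RPM values, which they call TPM, with no correction for length. The number of reads over the miRNA entries was inferred from the step of the values. At least 99.76% of values were whole multiples of 1 step, within 0.0075 RPM. In LP and LD, 3 reads correspond to 0.1394 to 0.3784 RPM. PCR copies are not independent molecules, so that this floor covers counting error only. A read can be counted at each of several precursors (36 miRNAs), and near-identical family members can share reads.

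Libraries were grouped by their labels. log2(RPM / size factor + 1) was fitted with limma 3.58.1 in R 4.3.3 (empirical Bayes with a trend, two-sided) over the 6 libraries of a comparison, or over 12 for the difference between comparisons, and the fit was tested on simulated data. List totals were compared by exact permutation tests with numpy 2.4.6 in Python 3.11.15. The study itself used DESeq2, and the planned tests on reads recovered from the steps were not run here, since most libraries held fewer low values than was required here for recovering reads. The text names the 12 smallest p-values in each direction among called miRNAs with a mean of at least 10 RPM, the 10 highest means, list members, and the 5 smallest p-values of the difference test. The members, lists and tests were chosen with earlier results of these data known. Alternatives were the scaling, pseudocounts of 0.1 and 5, a mean of at least 10 RPM, a fit over 12 libraries, a replicate block, no trend in limma, all precursor entries, and leaving out each library. Mature sequences were not used here.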

Additional observations from a re-analysis of the deposited data

How the results depend on the processing

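The number of called miRNAs between LP and LD (52) was 86 with all 12 libraries in 1 fit (47 higher, 39 lower, 51 of the 52 among them) and 7 without size factors (6 higher, 1 lower). In the fits that each left out 1 library it ranged from 4 to 82. With a replicate block it was 21, and with the remaining settings 38 to 62. Size factors from miRNAs with a mean of at least 100 RPM, an alternative chosen after seeing the data, gave 45. DE miRNAs (106) ranged from 69 (without LP replicate 3) to 132 when a library was left out, and from 77 to 118 otherwise. Lists whose totals did not overlap (8) numbered between 9 and 13 when a library was left out. The RPM totals are fixed, so that leaving out a library can only keep or raise this number. The test of the difference between low and high protein cows gave 0 in all fits. Over 47 named miRNAs and 700 comparisons with an alternative, 494 kept their direction and side of the threshold, 195 lost the call, 3 gained it and 8 changed sign, all 8 in miRNAs that were not called. These were let-7f (0.03 with a trimmed mean of M values and -0.11 to 0.08 without single libraries), miR-10b (-1.06 to 0.02 without single libraries), miR-143 (-0.63 to 0.27) and miR-30a-5p (-0.02 to 1.2). The cause was not tested, beyond the fewer libraries of such fits. With the replicate number as a block (replicate block), 21 miRNAs were called, 14 higher and 7 lower, 20 of them among the 52. Libraries with the same number come from different cows. The deviations of LP and LD from their group means correlated at -0.392, -0.072 and -0.21 for numbers 1 to 3. Pairs of unlike numbers correlated at -0.192 to 0.403. Whether libraries of the same number shared a batch was not tested, since each number gives only 1 correlation. Tests on counts were not run. The number of miRNA reads limits statements on miRNAs near the value of 3 reads, 0.1394 to 0.3784 RPM.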

Other observations

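Of the 52 called miRNAs, 14 had a mean under 10 RPM over LP and LD and fell outside the rule for named miRNAs. They were chosen after their values were seen. miR-6715, within the annotated span of TECTB, had 11.6, 6.34 and 5.75 normalized RPM in LP and was at 0 in LD replicates 1 and 2 and at 0.230 in LD replicate 3. Its deposited value in LD replicate 3 was 0.19 RPM, against 0.1436 RPM for 3 reads, so that LD was at or near the floor and the fitted log2 fold change of 3.0 (SE 0.31, limma adjusted p = 0.00272) depends on the added count of 1. miR-6516 had 21.0, 11.0 and 22.5 normalized RPM in LP and 0.908, 1.75 and 1.45 in LD (log2 fold change 2.97, SE 0.38, limma adjusted p = 0.00489). Both were called in all 6 fits that left out a library, and both were called in the same direction between HP and HD (limma adjusted p = 0.000316 and 0.001).

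In the other direction, both arms of miR-1247 were called lower in LP. miR-1247-5p had 0.353, 2.87 and 0.496 normalized RPM in LP and 16.3, 11.7 and 4.0 in LD (log2 fold change -2.38, SE 0.57, limma adjusted p = 0.0306), and miR-1247-3p had 0.0823 to 0.513 in LP and 1.97 to 2.93 in LD (-1.48, SE 0.23, limma adjusted p = 0.0112). miR-211, encoded in TRPM1 and known from pigment cells, had 0.353 to 0.588 in LP and 2.34 to 8.18 in LD (-1.94, SE 0.37, limma adjusted p = 0.0228). All 3 were also called lower in HP than in HD (limma adjusted p = 0.00361, 0.00691 and 0.000497). The LP values of miR-1247-3p and miR-211 lie near the value of 3 reads, as do those of miR-1247-5p in LP replicates 1 and 3 but not in LP replicate 2. The calls of miR-1247-3p and miR-211 were lost without LP replicate 1 (limma adjusted p = 0.0577 and 0.0684) or LP replicate 3 (0.082 and 0.0962), and that of miR-1247-5p without LP replicate 1 or 3 or LD replicate 2 (0.108, 0.142 and 0.0703).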
